A study of Rattus norvegicus with 12 samples.

Results

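The 6 machine-perfused rat livers of the study were compared with its 6 unperfused livers, chosen by their group labels, and all 12 livers entered the comparison. All grafts came from male Sprague Dawley (SD) rats of 6 to 8 weeks and modelled donation after circulatory death (DCD): the heart was arrested in heparinized animals and the liver lay in situ for 30 min of warm ischemia. The unperfused arm held 3 livers taken at that point (WI 30 min) and 3 livers kept for a further 4 h in static cold storage in HTK, a preservation solution (SCS 4 h). The perfused arm held 3 livers that had 3 h of the same cold storage and then 1 h of hypothermic machine perfusion through the portal vein (HMP 1 h), and 3 livers that had the same 3 h and then 1 h of hypothermic oxygenated perfusion (HOPE 1 h). One mean was fitted for each of the 4 groups, and the contrast was the average of HMP 1 h and HOPE 1 h minus the average of SCS 4 h and WI 30 min. Because the WI 30 min livers had no cold storage at all, cold storage and perfusion cannot be told apart in the pooled contrast, and the calls and main list medians against SCS 4 h alone are given last. No healthy liver without warm ischemia entered, so every level below is a level after ischemia. Each sample was a bulk piece of 1 liver, in which fewer cells of a type and less RNA per cell cannot be told apart.

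In liver without blood flow, oxygen runs out, respiration stops and glycolysis is left to supply energy, while cooling slows all of these and also slows transcription and RNA decay. Cold machine perfusion moves preservation solution through the sinusoids, which brings flow and fresh solution to the endothelium and, with an oxygenator, oxygen to the mitochondria. Interferons act through a complex that holds Stat2 and Irf9 and binds the interferon-stimulated response element in the promoters of antiviral genes. The nuclear receptor PPAR alpha drives genes that burn fatty acids in mitochondria and peroxisomes and make ketone bodies. Heat shock factor 1 drives chaperone genes, whose products refold or hold damaged proteins.

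The count totals ran from 15262961 to 18343167 per liver, and 13687 of the 33744 genes in the table passed the filter on low counts and were tested. Levels are given as CPM, counts scaled to a common library size after TMM normalization, and changes as the log2 of perfused over unperfused with the standard error (SE) of the fit. Against the label liver, the 12 hepatocyte markers, among them albumin and transferrin, were all detected and summed to 150500 to 233800 CPM in the unperfused and 159200 to 220900 CPM in the perfused livers. HMP 1 h liver 1 stood apart, with 18.7% of its counts from mitochondrial DNA against 4.79% to 10.2% in the other 11 livers. That liver and HOPE 1 h liver 3 also held the highest sums of immune and endothelial markers, and the call counts and list medians are also given without both of them.

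In the perfused livers 37 genes were higher and 103 were lower than in the unperfused livers, 140 genes or 1.02% of those tested (edgeR quasi-likelihood test, Benjamini-Hochberg adjusted p below 0.05). The higher genes were 0.27% and the lower genes 0.753% of all tested, and 2418 genes, 17.7%, had an unadjusted p below 0.05. The higher genes had a median log2 change of 1.00, from 0.42 to 4.41, and the lower genes a median of -0.62, from -2.86 to -0.36, beside a median of 0.03 over all tested genes. Among the called genes decreases were therefore more numerous and smaller, while 54.7% of all tested genes had a positive change. The split of calls also varied with the livers, at 32 higher and 32 lower without HOPE 1 h liver 2. The 6 perfused livers lay above all 6 unperfused livers in 85 genes (0.621%) and below them in 166 genes (1.21%). Of the called genes, 18 of the 37 higher and 71 of the 103 lower were apart in this way, and the rest overlapped in at least 1 liver.

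**Figure D1:**
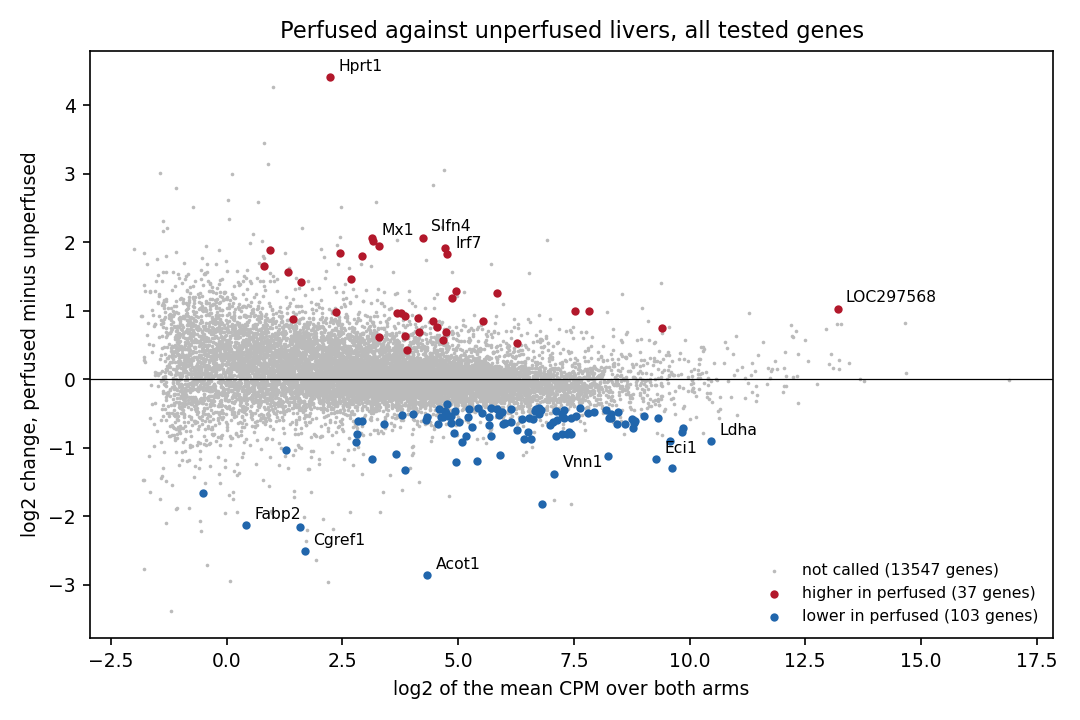
Each point is 1 of 13687 tested genes, with the log2 of its mean CPM over both arms on the x axis and its log2 change, perfused minus unperfused, on the y axis. Red points are the 37 genes called higher and blue points the 103 called lower, with medians of 1.00 and -0.62.

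**Figure D2:**
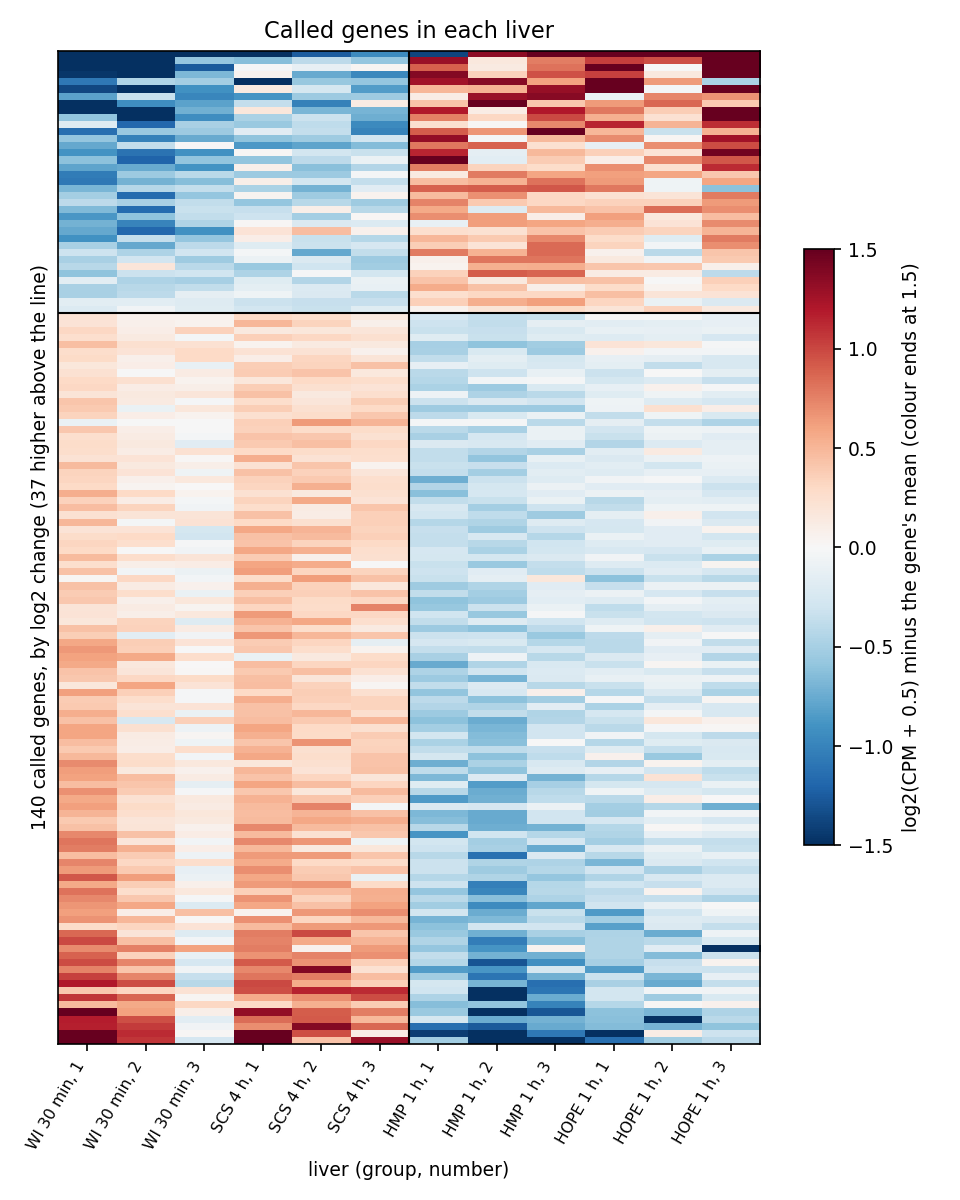
Rows are the 140 called genes in order of their log2 change and columns are the 12 livers, with colour for log2(CPM + 0.5) after subtraction of the mean of all livers for that gene, on a scale that ends at 1.5. Above the line the 37 higher genes are mostly blue in the unperfused and red in the perfused livers, and below it the 103 lower genes show the opposite, with WI 30 min liver 3 paler than the other unperfused livers.

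Antiviral genes that answer interferon were higher in the perfused livers. Of the 48 tested members of the list of interferon-stimulated antiviral genes, 9 rose and none fell, 45 of 48 had a positive change, and the list's median was 0.79. Irf7, a transcription factor that amplifies the interferon response (ENSRNOG00000017414, Rnor_6.0 chr1:214248837-214252456), was at 5.81, 12.8 and 23.8 CPM as the lowest, median and highest of the 6 unperfused livers, and at 22.9, 43.1 and 65.4 CPM in the perfused livers. It rose 3.54-fold (log2 change 1.82, SE 0.30, edgeR adjusted p = 0.027), and only SCS 4 h liver 1 reached into the perfused range. Mx1, a dynamin-like GTPase that blocks virus replication (ENSRNOG00000001959, chr11:37891156-37914983), was at 1.69, 3.50 and 7.01 CPM without and at 7.53, 13.9 and 22.9 CPM with perfusion, with no overlap, and rose 4.05-fold (log2 change 2.02, SE 0.33, edgeR adjusted p = 0.027). Its neighbour Mx2 rose 3.77-fold (1.91, SE 0.33), and since reads can be split between these near copies, the separate values are less certain than their shared direction.

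Oas1a makes an oligoadenylate messenger that turns on an RNase, and its CPM ran from 0.75 through a median of 4.07 to 6.48 in unperfused livers and from 6.28 through 11.8 to 25.6 in perfused livers. The arms overlapped in Oas1a through HOPE 1 h liver 2 and SCS 4 h liver 3 alone, and the gene rose 4.18-fold (log2 change 2.06, SE 0.34). Much of this rise was one against WI 30 min, as SCS 4 h itself lay 1.90 above WI 30 min on the log2 scale. Against SCS 4 h the change was 0.73 for HMP 1 h and 1.49 for HOPE 1 h. Ifit3, which binds foreign RNA with its partners, had no overlap at 1.5 to 4.70 CPM against 7.05 to 24.0 CPM (log2 change 1.79, SE 0.32). Lgals3bp, a secreted galectin-binding glycoprotein, was at 13.8, 16.1 and 27.8 CPM without and 31.1, 38.1 and 57.7 CPM with perfusion (log2 change 1.18, SE 0.17, edgeR adjusted p = 0.017). The other members that rose were Xaf1, a pro-apoptotic factor (1.41), the nuclear body protein gene Sp110 (0.61), Ifitm3, which hinders virus entry (0.85), and Ifi44l (0.98). The 11 members of both interferon lists that rose were modest transcripts per unit length, with a median of the authors' FPKM of 4.00 in the unperfused and 6.77 in the perfused livers.

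The list of interferon sensing and signalling genes moved less than the targets. Irf7 and Irf9 rose among its 24 tested members, the median was 0.27, and 20 were positive. Irf9, the DNA-binding part of the interferon-activated complex, was at 12 to 18.3 CPM without and at 20.2 to 37.8 CPM with perfusion, with no overlap (log2 change 0.85, SE 0.15, edgeR adjusted p = 0.032).

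The promoters of these genes are shown because the genes moved together and are known to share 1 element. The sequence searched was GAAANNGAAA on both strands, the core of the interferon-stimulated response element, in the window from 250 bases before to 50 after the start of each gene as RefSeq gives it on build GRCr8. It lay in 24 of the 36 promoters found for the antiviral list (66.7%), in 7 of the 8 found for its 9 genes that rose, in 3 of the 17 found for the sensing and signalling list (17.6%), where Irf7 held it and Irf9 did not, and in 1312 of all 33469 promoters (3.92%). Of the 37 higher genes as a whole, 27 had a promoter in the table and 12 of these held it (44.4%), against 1 of 80 for the lower genes (1.25%). Below are the 120 bases before the start of 5 genes that rose, 5′ to 3′ on the gene's own strand, with every match in capitals, either as written or as its reverse complement.
Oas1a (chr12:41330346-41330465, plus strand): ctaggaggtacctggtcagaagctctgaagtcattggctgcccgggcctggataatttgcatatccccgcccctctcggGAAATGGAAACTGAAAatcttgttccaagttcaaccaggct
Ifit3 (chr1:241527206-241527325, plus strand): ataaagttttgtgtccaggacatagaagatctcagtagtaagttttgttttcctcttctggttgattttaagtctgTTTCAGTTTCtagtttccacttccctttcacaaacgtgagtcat
Ifi44l (chr2:243328603-243328722, plus strand): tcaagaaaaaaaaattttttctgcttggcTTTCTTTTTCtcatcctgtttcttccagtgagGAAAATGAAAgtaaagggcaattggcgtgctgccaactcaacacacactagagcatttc
Lgals3bp (chr10:104127849-104127968, minus strand): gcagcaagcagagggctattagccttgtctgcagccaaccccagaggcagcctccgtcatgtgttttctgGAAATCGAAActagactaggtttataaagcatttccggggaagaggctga
Irf7 (chr1:205800024-205800143, minus strand): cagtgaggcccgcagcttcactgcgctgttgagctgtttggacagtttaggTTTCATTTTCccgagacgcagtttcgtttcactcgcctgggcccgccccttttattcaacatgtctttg
In Oas1a the capitals hold 2 overlapping matches, and in Ifi44l there are 2 separate ones. The window of Mx1 did not hold these letters. A match is a description of the sequence only.

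Some antigen presentation and further innate immunity genes were also higher. In the list of antigen presentation and immunoproteasome genes 3 of 26 rose, 25 were positive and the median was 0.67. The median was 0.28 without HMP 1 h liver 1, 0.19 without that liver and HOPE 1 h liver 3, and 0.35 against SCS 4 h alone, and the same 2 livers held the highest Kupffer and lymphocyte marker sums, whose part was not tested. RT1-S3, a class I molecule of the rat histocompatibility complex (ENSRNOG00000000777, chr20:3176107-3179818), was at 99.2, 149 and 221 CPM without and at 200, 307 and 367 CPM with perfusion, and rose (log2 change 1.00, SE 0.15, edgeR adjusted p = 0.017), with an overlap through HOPE 1 h liver 2 and SCS 4 h liver 1. Tap1, a subunit of the pump that loads peptides onto class I molecules, rose from a median of 17.2 to 30.5 CPM with overlap (0.76, SE 0.16). Its mean was 36.47 CPM in HMP 1 h and 22.88 CPM in HOPE 1 h, beside 17.06 CPM in WI 30 min and 17.02 CPM in SCS 4 h. Of the 26 genes of the list, 3 were higher in HOPE 1 h than in HMP 1 h. RT1-CE10, another class I gene, rose from a median of 1.93 to 3.31 CPM with overlap (0.88, SE 0.18). This rise was largely one against the WI 30 min livers, whose mean was 1.05 CPM, beside 3.05 CPM for SCS 4 h. HOPE 1 h lay only 0.18 above SCS 4 h on the log2 scale, and HMP 1 h only 0.06 above it. As class I genes are near copies of each other, their counts can be split between them.

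A group of 5 called genes known from antiviral or innate immunity were in no list and were gathered after their values were seen: Slfn4, Samd9, Ly6e, Pml and Adar, with changes from 0.58 to 2.07. Slfn4, a schlafen family gene of myeloid cells (ENSRNOG00000057092, chr10:70411738-70435156), was at 3.06, 9.02 and 10.6 CPM without and at 15.7, 28.6 and 49.8 CPM with perfusion, with no overlap (4.19-fold, log2 change 2.07, SE 0.29, edgeR adjusted p = 0.017). Samd9, an antiviral restriction factor, rose from a median of 3.52 to 8.65 CPM without overlap (1.47, SE 0.27), and Ly6e, which restricts the entry of some viruses, from 17.8 to 36.2 CPM with overlap (1.29, SE 0.25). Those known for roles inside the nucleus moved least: Pml, which builds nuclear bodies, by 0.63 and Adar, which edits double-stranded RNA, by 0.58, both without overlap.

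**Figure D3:**
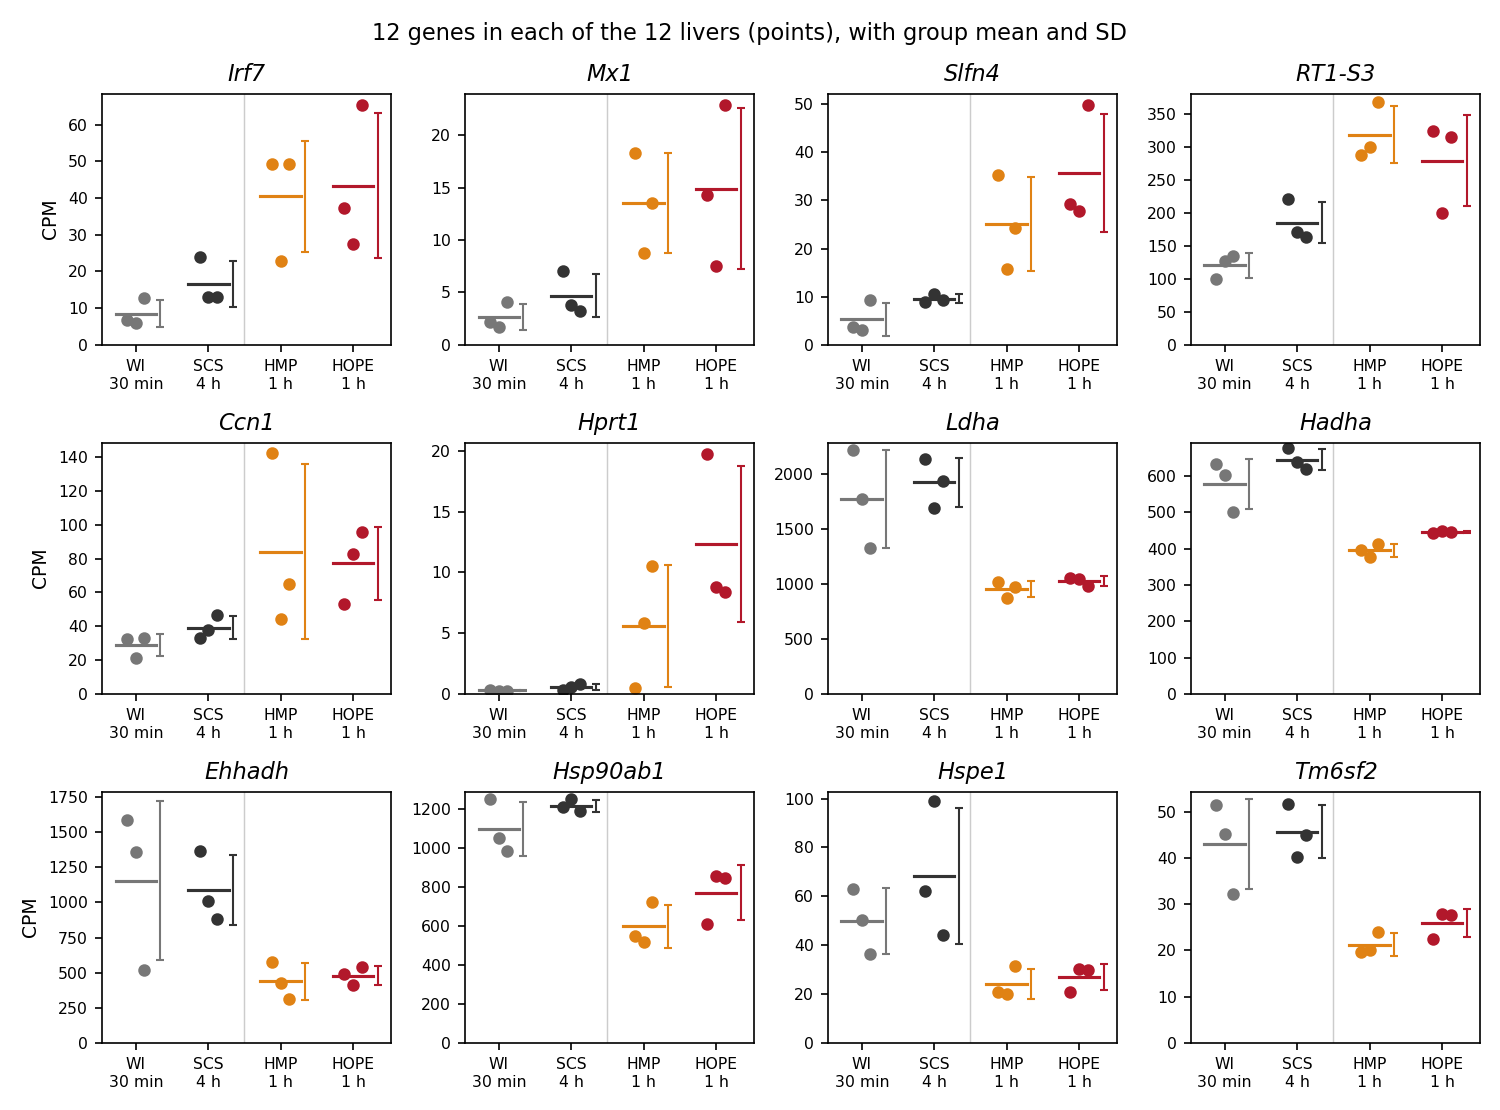
CPM of 12 genes (y axes, each from 0) in the 3 livers of each group (x axes), with points for livers, a horizontal line for the group mean and a bar for 1 SD. The first 6 genes rose and the last 6 fell in the perfused livers; Hprt1 is near 0 in all unperfused livers and in HMP 1 h liver 1, and Ehhadh shows WI 30 min liver 3 inside the perfused range.

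Genes that burn fatty acids were lower in the perfused livers. In the list of mitochondrial fatty acid oxidation genes 8 of 32 fell and none rose, 29 were negative and the median was -0.45. Hadha, the alpha subunit of the trifunctional protein that carries out the last steps on long chains (ENSRNOG00000024629, chr6:27589657-27629175), was at 500, 627 and 678 CPM without and at 378, 428 and 448 CPM with perfusion, with no overlap (1.46-fold lower, log2 change -0.54, SE 0.09, edgeR adjusted p = 0.027). Its partner Hadhb was also apart, at 417 to 680 against 251 to 403 CPM (-0.71, SE 0.13). Both subunits of this enzyme thus lay lower in all 6 perfused livers than in any unperfused liver.

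Eci1, an isomerase needed for unsaturated fatty acids, fell most of the 8, from a median of 903 to 402 CPM (2.24-fold lower, -1.16, SE 0.22), with an overlap through WI 30 min liver 3. The dehydrogenases that start the cycle on long, short and very long chains fell by similar steps: Acadl by 0.64, Acads by 0.43 and Acadvl by 0.47 on the log2 scale. Acaa2, the thiolase that ends it, fell from a median of 1210 to 747 CPM (-0.71, SE 0.14), and Mlycd, which removes the inhibitor malonyl-CoA, fell by 0.45.

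Peroxisomes shorten very long fatty acids, and 5 of the 28 tested genes of the list of peroxisomal and omega oxidation genes fell while 22 were negative (median -0.32). Ehhadh, the bifunctional enzyme of the peroxisomal pathway (ENSRNOG00000001770, chr11:82945104-82978364), was at 516, 1186 and 1589 CPM without and at 315, 458 and 572 CPM with perfusion. It fell 2.45-fold (log2 change -1.29, SE 0.25, edgeR adjusted p = 0.043), and WI 30 min liver 3 alone reached into the perfused range. Cyp4a1, which oxidizes the omega end of fatty acids, fell from a median of 1071 to 541 CPM (-0.90, SE 0.15), again with WI 30 min liver 3 inside the perfused range. The other 3 were the fatty acid importer Abcd3 (-0.48), the thioesterase Acot8 (-0.61) and the thiolase Acaa1a (-0.58).

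Among ketogenesis and PPARA target genes 4 of 26 fell, 20 were negative and the median was -0.37. Acot1, a cytosolic thioesterase that frees fatty acids from coenzyme A (ENSRNOG00000055221, chr6:107485249-107493798), had the largest decrease of the 140 genes. Its CPM ran from 9.07 through 25.4 to 73.8 in the unperfused and from 1.06 through 6.04 to 8.13 in the perfused livers, with no overlap (7.28-fold lower, log2 change -2.86, SE 0.59, edgeR adjusted p = 0.046), although the unperfused livers themselves differed widely and Acot genes are near copies. Vnn1, a pantetheinase that recycles a part of coenzyme A, fell 2.60-fold from a median of 201 to 82.2 CPM (-1.38, SE 0.24) without overlap. Acat1, a thiolase of ketone body metabolism, fell by 0.66, and Fabp2, a fatty acid carrier at low level in liver, fell by 2.13 on the log2 scale from a median of 2.38 to 0.49 CPM.

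A PPAR element of 2 direct repeats 1 base apart, AGGTCANAGGTCA, was found on neither strand in the promoters of the 6 mitochondrial and 4 peroxisomal genes that fell and have one in the table. It lay in 18 of all 33469 promoters (0.0538%), and a missing match says only that these letters are not in these windows. The single repeat AGGTCA lay in 3 of the 6 and 1 of the 4, against 16.2% of all promoters. It lay in 7 of 28 promoters found for the mitochondrial list (25%) and 11 of 24 for the peroxisomal list (45.8%). Of all lower genes with a promoter, 16 of 80 held it (20%). By contrast with the interferon genes the fatty acid oxidation genes that fell were abundant, with a median of the authors' FPKM of 280 in the unperfused and 147 in the perfused livers over 13 genes.

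Chaperone genes were lower too. In the heat shock list 9 of 46 fell and none rose, 34 were negative and the median was -0.31. Hsp90ab1, the constitutive cytosolic Hsp90 (ENSRNOG00000019834, chr9:17817721-17823243), was at 986, 1200 and 1254 CPM without and at 520, 667 and 858 CPM with perfusion, with no overlap (1.70-fold lower, log2 change -0.77, SE 0.13, edgeR adjusted p = 0.027). Partners of Hsp90 moved with it: Fkbp4, a co-chaperone of steroid receptors, fell from a median of 164 to 101 CPM (-0.82, SE 0.12), Ahsa1, which speeds its ATPase, from 97.0 to 56.3 CPM (-0.75, SE 0.12), and Stip1, which bridges it to Hsp70, from 82.0 to 46.9 CPM (-0.64, SE 0.13).

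The matrix chaperones of mitochondria fell as well. Hspe1, the lid of the mitochondrial folding chamber (ENSRNOG00000051624, chr9:61692154-61694599), was at 36.2, 56.3 and 98.9 CPM without and at 20.2, 25.4 and 31.3 CPM with perfusion, with no overlap (2.29-fold lower, log2 change -1.20, SE 0.21, edgeR adjusted p = 0.032). Hspd1, the chamber itself, fell by 0.61 from a median of 545 to 360 CPM, and Hspa9, which pulls proteins into the matrix, by 0.50. Cct3 and Cct5, subunits of the cytosolic chaperonin, fell by 0.44 and 0.47. Among members of the list that missed the threshold, Hspb1 was at -1.40 (edgeR adjusted p = 0.071) and Hsph1 at -1.06 (edgeR adjusted p = 0.055). Hspa1b, an inducible Hsp70, was at 0.13 (edgeR adjusted p = 0.91), and all 3 were picked out after their values were seen.

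The heat shock element searched was GAANNTTCNNGAA on both strands. It lay in 7 of 37 promoters found for the list (18.9%), in 267 of all 33469 (0.798%), and in 2 of the 9 genes that fell, Hspe1 and Hspd1. These 2 genes lie head to head and their windows overlap, so both hold the same bases, shown here with 2 overlapping matches in capitals.
Hspe1 (chr9:64084207-64084326, plus strand, GRCr8): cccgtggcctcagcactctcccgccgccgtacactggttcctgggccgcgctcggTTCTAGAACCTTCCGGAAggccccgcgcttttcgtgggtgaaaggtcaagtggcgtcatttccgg

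Protein turnover genes went the same way by small steps. All 31 tested genes of the constitutive proteasome were negative and 30 had an unadjusted p below 0.05, while 3 passed the adjusted threshold, and the median of -0.42 sat beside 0.03 for all genes. The 3 were subunits of the 19S cap: Psmd2 fell from a median of 202 to 142 CPM without overlap (-0.56, SE 0.11), Psmd3 by 0.42 and Psmc2 by 0.44. The whole list lay in a narrow range, from -0.59 to -0.26. In the endoplasmic reticulum list 2 of 36 fell, Calr, a calcium-binding lectin chaperone (-0.57), and Sdf2l1, a partner of Hspa5 (-0.47), with a list median of -0.10.

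Glycolytic genes were divided. Ldha, which turns pyruvate into lactate (ENSRNOG00000013009, chr1:102900286-102909707), was at 1328, 1856 and 2218 CPM without and at 872, 997 and 1055 CPM with perfusion, with no overlap (1.87-fold lower, log2 change -0.90, SE 0.13, edgeR adjusted p = 0.017). Gapdh fell from a median of 475 to 310 CPM (-0.65, SE 0.12) and Pgk1 from 171 to 112 CPM (-0.59, SE 0.11), both enzymes of the later steps of the pathway and both without overlap. The other 24 tested members did not pass, 16 of all 27 were positive and the list median was 0.21, opposite in sign to these enzymes. That median rested on HOPE 1 h liver 3, since it was 0.015 without this liver and 0.0077, with 13 genes positive and 13 negative, without HMP 1 h liver 1 as well.

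Respiratory chain genes of the nucleus and of mitochondrial DNA lay on opposite sides. Of 76 nuclear genes for the chain and ATP synthase 74 were negative, with a median of -0.28 and 49 at an unadjusted p below 0.05, and 3 fell, all subunits of complex I: Ndufb7 (-0.48, SE 0.09), Ndufb9 (-0.51, SE 0.10) and Ndufa3 (-0.55, SE 0.11). The 13 mRNAs encoded by mitochondrial DNA were all positive with a median of 0.80, and none passed. ND6 was at 248, 310 and 435 CPM without and at 410, 623 and 1268 CPM with perfusion (log2 change 1.04, SE 0.25, edgeR adjusted p = 0.074), and ND5 at 1357 to 2059 against 2088 to 5984 CPM (0.96, SE 0.25, adjusted p = 0.093). HMP 1 h liver 1 gave the highest value of both. With that liver and HOPE 1 h liver 3 left out the 13 mRNAs had a median of 0.30 and the nuclear list of -0.26. Within the unperfused arm all 76 nuclear genes lay above WI 30 min in SCS 4 h, so the decrease was larger against SCS 4 h (median -0.42) than against WI 30 min (median -0.13).

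Most called genes lay outside the interferon, fatty acid oxidation and heat shock lists, namely 26 of the 37 higher and 81 of the 103 lower genes. These counts follow list membership only, and they include genes of related roles, such as Slfn4, Tap1, Acot1 and Cct6a. The largest increase of all was that of Hprt1, the purine salvage enzyme often taken as a stable reference gene (ENSRNOG00000048561, chrX:158197149-158228749). It was at 0.24, 0.31 and 0.79 CPM in the unperfused livers and at 0.46, 8.61 and 19.7 CPM in the perfused livers (log2 change 4.41, SE 0.63, edgeR adjusted p = 0.017). The low value was HMP 1 h liver 1, which stayed in the unperfused range, while the other 5 perfused livers lay at 5.81 CPM or above. Enpp4, a surface enzyme that splits nucleotides and the gene with the smallest p of all, was at 7.85 to 9.19 against 15 to 20.5 CPM, with no overlap (log2 change 0.97, SE 0.11, adjusted p = 0.017), and it was singled out after its value was seen.

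LOC297568 (ENSRNOG00000037188, chr4:154391647-154729310) was at 4200, 5957 and 8535 CPM without and 9555, 13120 and 14910 CPM with perfusion, with no overlap (2.05-fold, log2 change 1.03, SE 0.17, edgeR adjusted p = 0.031). Ccn1, a matricellular protein switched on fast by stretch and serum, rose from a median of 32.9 to 74.0 CPM (1.26, SE 0.26). Aldh1b1, a mitochondrial aldehyde dehydrogenase, rose from 2.06 to 6.28 CPM without overlap (1.85, SE 0.36), and Adam11, a protease-like protein without known catalysis, from 4.73 to 14.9 CPM with overlap (1.95, SE 0.40). Further higher genes, named after their values were seen, included Cav2, a caveola protein (0.92, SE 0.15, no overlap). Tymp, which breaks down thymidine (0.99, SE 0.20), and Ptprs, a receptor phosphatase (0.52, SE 0.10), were also among them, both with overlap. These 2 rose more in HMP 1 h. Tymp means were 313.4 CPM in HMP 1 h and 185.4 CPM in HOPE 1 h, beside 118.7 CPM in WI 30 min and 123.4 CPM in SCS 4 h. For Ptprs they were 107.3 and 76.24 CPM, beside 66.69 and 59.36 CPM.

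Genes of lipid export and lipid droplets were among the lower ones. Tm6sf2, which helps to load lipid onto secreted particles (ENSRNOG00000042237, chr16:21092308-21099878), was at 32.3, 45.1 and 51.6 CPM without and at 19.6, 23.2 and 27.8 CPM with perfusion, with no overlap (1.89-fold lower, log2 change -0.92, SE 0.13, edgeR adjusted p = 0.017). Apoa4, an apolipoprotein of such particles, fell from a median of 429 to 188 CPM (-1.12, SE 0.23). Mttp, which lipidates apolipoprotein B, and Fitm2, which helps lipid droplets to bud, fell by 0.45 and 0.43. The Fitm2 mean was 34.85 CPM in HMP 1 h but 55.6 CPM in HOPE 1 h, beside 55.25 CPM in SCS 4 h and 63.41 CPM in WI 30 min. Its decrease was thus largely one of HMP 1 h, and HOPE 1 h lay at the SCS 4 h level. Apoa4 belonged to the sterol export list. Tm6sf2, Mttp and Fitm2 were among 8 lipid handling genes of no list, gathered after their values were seen, with changes from -1.21 to -0.43.

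Other genes that fell had varied known roles. Tex49, outside the naming rule at a mean under 5 CPM and named after its values were seen, fell 4.46-fold from a median of 5.01 to 1.21 CPM (-2.16, SE 0.27, edgeR adjusted p = 0.017) without overlap. An unannotated locus with no symbol (Rnor_6.0 chr8:127837939-127849337), likewise picked out afterwards, fell from 161 to 56.9 CPM (-1.82, SE 0.26), also without overlap. Aig1, a hydrolase of hydroxy fatty acid esters, fell from a median of 46.5 to 18.0 CPM (-1.21, SE 0.21), and Abhd1, of the alpha/beta hydrolase family, from 80.0 to 40.0 CPM (-1.11, SE 0.16). Cgref1, a secreted growth regulator, fell from 5.10 to 0.65 CPM (-2.51, SE 0.47), and Adcy10, the soluble bicarbonate-sensing adenylyl cyclase, from 19.8 to 9.73 CPM (-1.32, SE 0.27). Chchd6, a subunit of the complex that shapes mitochondrial cristae, fell from 17.6 to 7.81 CPM (-1.09, SE 0.19). Of these, Abhd1 and Adcy10 did not overlap between the arms. AC098459.1, a processed pseudogene whose reads may come from its parent gene, fell by 1.16, AABR07029661.1 by 0.91, and Hsd17b13, a lipid droplet protein of hepatocytes, by 0.56.

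Of the lower genes of no list 15 code for mitochondrial proteins and were grouped after their values were seen, with changes from -1.09 to -0.36. The arms were apart in 11 of the 15, a share near that of all lower genes, 71 of 103. Mdh2 and Suclg1, enzymes of the citric acid cycle, fell by 0.54 and 0.49, and Mpc2, a subunit of the pyruvate carrier of the inner membrane, fell from a median of 221 to 132 CPM (-0.80, SE 0.15). Clpp, the matrix protease, fell by 0.54, and Bola1, an iron-sulfur cluster factor, from 34.9 to 22 CPM without overlap (-0.63, SE 0.09, edgeR adjusted p = 0.017). Txnrd2, the thioredoxin reductase of mitochondria and a member of the antioxidant list, fell by 0.49. Outside mitochondria, Galk1, the first enzyme of galactose use, fell by 0.87, Ugdh, which makes UDP-glucuronate for conjugation, by 0.51, the chaperonin subunit Cct6a by 0.57, Cacybp by 0.67, the nuclear pore protein Nup62 by 0.76 and Sympk, a scaffold of polyadenylation, by 0.42.

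**Figure D4:**
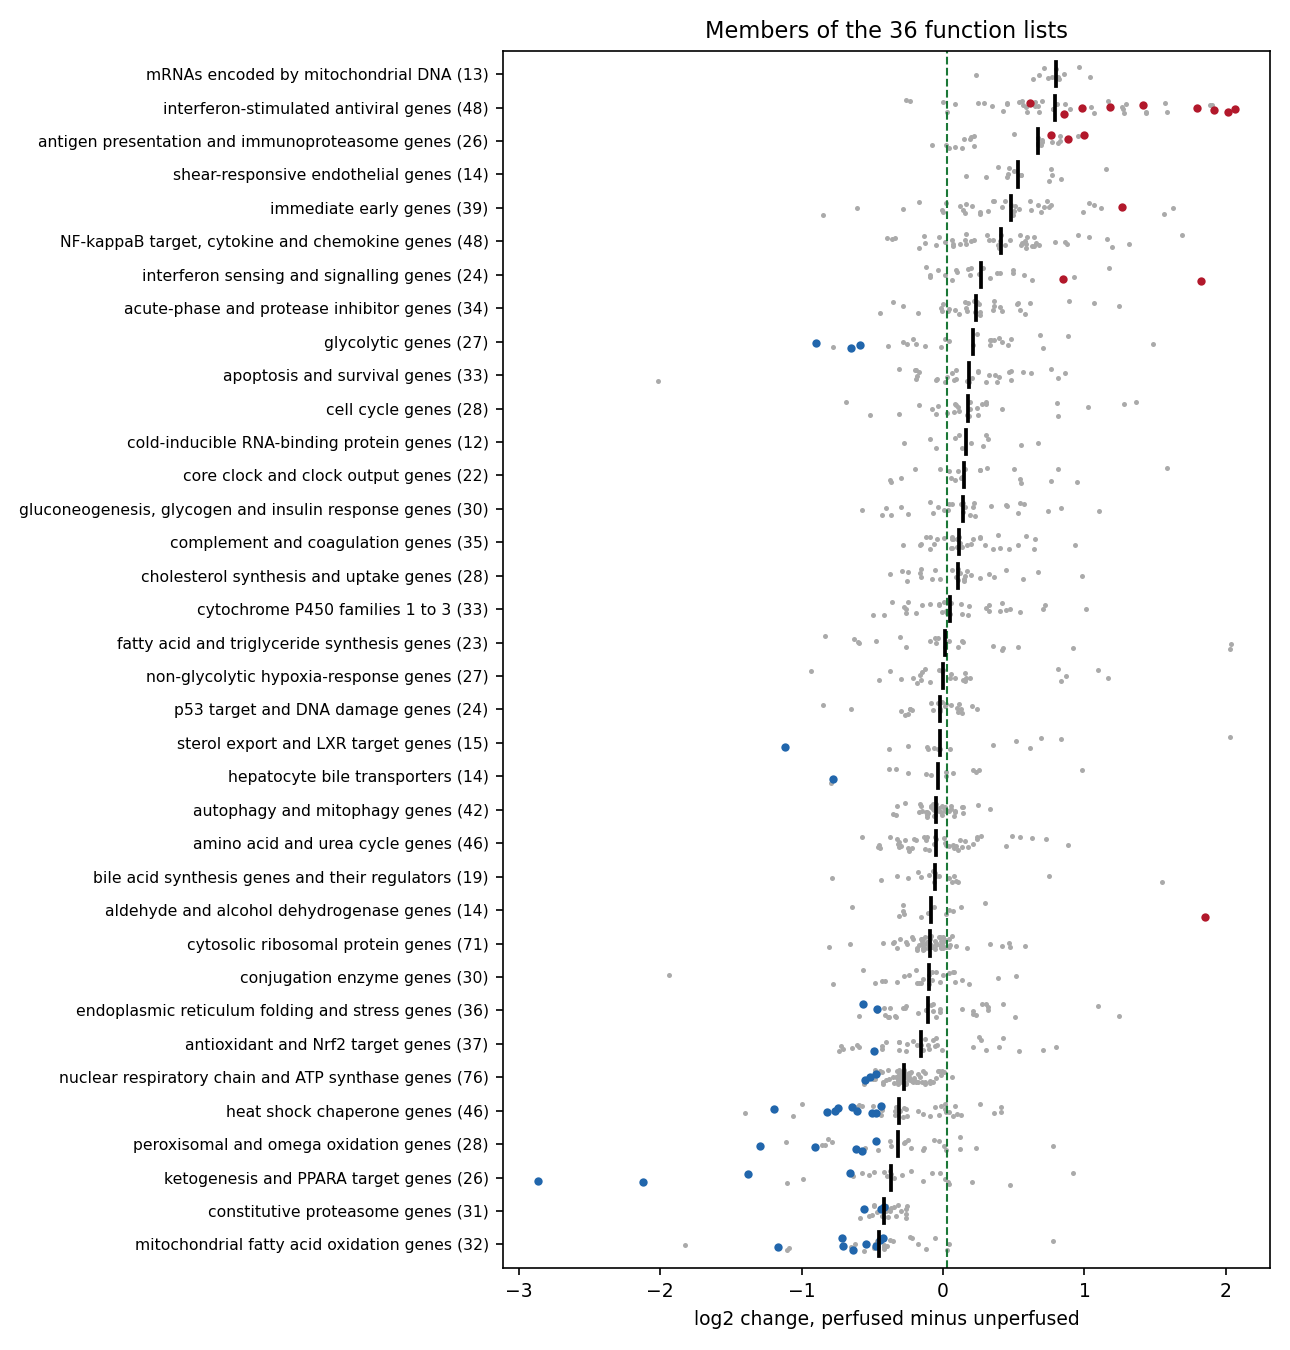
Points are the tested members of the 36 function lists (rows, number tested in brackets) at their log2 change, perfused minus unperfused (x axis), red where called higher, blue where called lower and grey otherwise. Black bars are list medians, from -0.45 for mitochondrial fatty acid oxidation to 0.80 for the mRNAs of mitochondrial DNA, and the dashed line is the median of all tested genes, 0.03.

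Flow-related and inflammatory lists leaned upward with at most 1 call. In the immediate early list Ccn1 rose alone among 39 genes, 34 were positive and the median was 0.48. The 14 shear-responsive endothelial genes were all positive (median 0.53) with none called. Of these von Willebrand factor, Vwf, at 7.05 to 10.7 against 11.3 to 36.3 CPM, had the smallest p (1.15, adjusted p = 0.092), followed by Ptgs1 (0.75). Of 48 NF-kappaB targets, cytokines and chemokines 40 were positive (median 0.41) and none passed. The adhesion molecule Icam1 (0.47) and the chemokine Ccl4 (1.19) came nearest. Acute-phase genes had 28 of 34 positive (median 0.23, with Fga at 0.58 and Mt1m at 0.89), and complement and coagulation genes 27 of 35 (median 0.12, with C6 at 0.93 and Masp1 at 0.39). Without HMP 1 h liver 1 and HOPE 1 h liver 3 the medians were 0.32 for the immediate early, 0.09 for the shear, 0.06 for the NF-kappaB and 0.36 for the acute-phase list. All genes named in this paragraph but Ccn1 missed the threshold.

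Lists of hepatocyte metabolism with no call had medians from -0.10 to 0.14, beside 0.03 for all genes. The median was 0.11 for cholesterol synthesis and uptake (Cyp51 0.56, Idi1 0.67), 0.01 for fatty acid and triglyceride synthesis (Elovl2 -0.84, Agpat2 -0.48) and -0.05 for bile acid synthesis (Cyp8b1 -0.78, Cyp7b1 0.75). It was 0.05 for cytochrome P450 families 1 to 3 (Cyp2t1 0.71, Cyp2j4 -0.42), -0.10 for conjugation enzymes (Gsta3 -1.94, Tpmt -0.41) and -0.05 for amino acid and urea cycle genes (Got2 -0.32, Agxt -0.57). Gluconeogenesis, glycogen and insulin response genes had a median of 0.14 (Igfbp3 0.74, Igfbp2 1.10). In each bracket stand the 2 genes of smallest p, none of which passed, the nearest being Cyp2t1 with an adjusted p of 0.055. The sterol export and aldehyde dehydrogenase lists had medians of -0.03 and -0.08 and 1 call each, Apoa4 and Aldh1b1.

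Stress and growth lists gave no call either. Medians were 0.00 for hypoxia-response genes outside glycolysis (Tfrc -0.93, Ddit4 1.09), 0.18 for apoptosis and survival (Casp6 -2.02, Ripk3 0.86), -0.02 for p53 targets (Gadd45a -0.85, Phlda3 -0.65) and 0.18 for cell cycle genes (Ccnd1 1.28, Mcm3 1.36). They were 0.15 for clock genes (Bhlhe40 0.81, Npas2 0.95), 0.16 for cold-inducible RNA-binding proteins (Rbm3 0.67, Cirbp 0.55), -0.10 for cytosolic ribosomal proteins (Rpl15 -0.32, Rpl21 -0.81) and -0.05 for autophagy and mitophagy (Phb2 -0.36, Ulk2 0.33). Of these genes Ccnd1, a driver of cell cycle entry, came nearest to the threshold with an adjusted p of 0.059.

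A further 11 genes of injury, oxidative stress, mitophagy and apoptosis were fixed by name, and of these Ldha passed. Pink1, the kinase that marks damaged mitochondria, was at 250, 264 and 313 CPM without and at 195, 255 and 286 CPM with perfusion (log2 change -0.12, SE 0.11, edgeR adjusted p = 0.61). Sqstm1, the autophagy receptor p62, was at a median of 382 and 389 CPM (-0.10, SE 0.10), and Map1lc3b, which coats autophagosomes, at 162 and 169 CPM (0.02, SE 0.14). Sod2, the mitochondrial superoxide dismutase, lay apart at 113 to 138 against 91.9 to 109 CPM but missed the threshold (-0.32, SE 0.08, adjusted p = 0.097). So did cytochrome c, Cycs (-0.32, SE 0.10), also apart, and the cytosolic dismutase Sod1 (-0.41, SE 0.16). Got1, the cytosolic aspartate aminotransferase, was at 0.22 (SE 0.24), the apoptosis gene Bax at 0.09 (SE 0.18), its opponent Bcl2, at 1.05 CPM or less in every liver, at 0.81 (SE 0.49), and the nuclear protein gene Hmgb1 at 0.06 (SE 0.15). A miss of the threshold does not show that these levels were alike.

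Markers of the other liver cells moved with the perfused arm and largely with 2 livers. The 20 sinusoidal endothelial markers were all positive (median 0.50, Cdh5 0.74 and Eng 0.59), and so were the 17 Kupffer cell markers (median 0.60, Aif1 0.94 and Siglec1 1.03) and the 12 lymphocyte and NK markers (median 0.71, Gzmk 1.54 and Cd8a 0.66), none of them called. Summed, the Kupffer markers ranged from 647 to 970 CPM in the unperfused and from 749 to 2330 CPM in the perfused livers, the endothelial markers from 952 to 1370 against 987 to 2399 CPM, and the lymphocyte markers from 28.8 to 34.3 against 25.7 to 94.1 CPM. Without HMP 1 h liver 1 and HOPE 1 h liver 3 the medians fell to 0.10 for Kupffer, 0.09 for endothelial and -0.11 for lymphocyte markers. Without the same 2 livers the medians were 0.62 for the antiviral list, -0.42 for mitochondrial fatty acid oxidation and -0.28 for heat shock, with 45 of 48 genes positive, 28 of 32 negative and 35 of 46 negative.

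Of the other marker lists none held a gene that rose, and 2 periportal markers fell. Stellate cell and fibroblast markers had a median of 0.39 (Reln 0.81, Lrat 0.70), with 16 of 19 positive, and bile duct markers 0.57 (Slc4a2 -0.32, Aqp1 0.93) with 9 of 12 positive. Without HMP 1 h liver 1 and HOPE 1 h liver 3 these medians were 0.04 and -0.06. The bile duct sum had a median of 466 CPM in the perfused and 563 CPM in the unperfused livers, so that the list's median and its sum pointed opposite ways. Neutrophil and monocyte markers were mostly under the filter, with 5 of 15 tested, all 5 positive (median 0.23, Plac8 0.75, and a median of -0.16 without the same 2 livers), and Fpr1 at 0 in every liver, and 3 of 9 mesothelial markers were tested (Msln 1.07, Cldn15 -0.43). Red cell and platelet genes were negative in 8 of 11 (median -0.57, Slc4a1 -0.82 and Pf4 0.99), with sums of 602 to 4718 CPM without and 285 to 2656 CPM with perfusion. Their median was -1.64 for SCS 4 h minus WI 30 min, and against SCS 4 h alone the perfused livers had a median of 0.29. Hepatocyte markers had a median of 0.03 (Apoa1 -0.72, Fgb 0.62), pericentral markers 0.07 (Cyp7a1 1.55, Aldh3a2 -0.31) and periportal markers -0.24, where Apoa4 and Hsd17b13 fell. The part of cell makeup in the called genes was not tested.

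**Figure D5:**
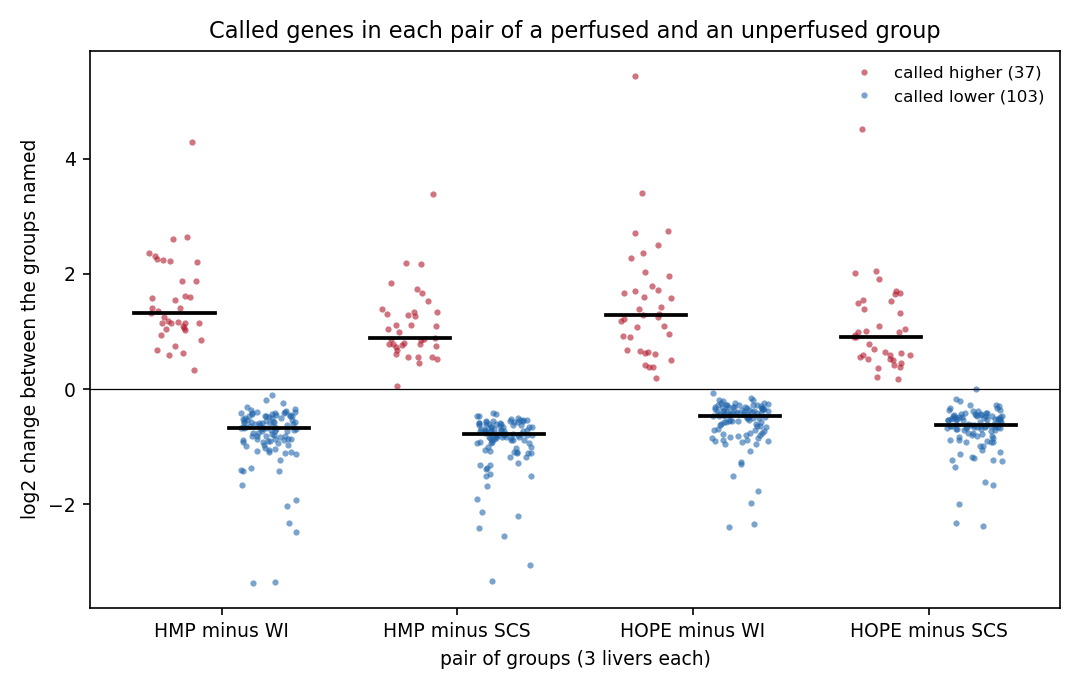
Points are the 37 higher (red) and 103 lower (blue) genes at their log2 change (y axis) in each of the 4 pairs of a perfused and an unperfused group of 3 livers (x axis), with black bars for medians. The medians of the higher genes run from 0.88 to 1.32 and those of the lower genes from -0.78 to -0.47, and pairs that share a group share its livers.

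Each perfused group differed from each unperfused group in the same direction for nearly all called genes, a direction that their choice favours. The median of the 37 higher genes was 1.32 for HMP 1 h and 1.28 for HOPE 1 h against WI 30 min, and 0.88 and 0.90 against SCS 4 h. The median of the 103 lower genes was -0.68 and -0.47 against WI 30 min, and -0.78 and -0.62 against SCS 4 h. For HOPE 1 h against SCS 4 h 1 gene, Fitm2, had the other sign. No single pair gave a called gene in edgeR, with 1173 to 1983 genes at an unadjusted p below 0.05.

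The groups within each arm were also set against each other. Between HOPE 1 h and HMP 1 h edgeR called 0 genes, with 1024 at an unadjusted p below 0.05, and between SCS 4 h and WI 30 min 0 genes, with 653. Of the 103 lower genes 91 lay above HMP 1 h in HOPE 1 h (88.3%, median log2 difference 0.19), against 49% of all tested genes. The genes that fell thus lay nearer to the unperfused level in HOPE 1 h, though genes that move together are not independent and none of these differences passed by itself. Of the 37 higher genes 16 were higher in HOPE 1 h and 21 in HMP 1 h. Within the unperfused arm 29 of the 37 higher and 76 of the 103 lower genes were above WI 30 min in SCS 4 h, against 52.3% of all genes.

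The number of calls depended on which livers entered. With SCS 4 h alone as the unperfused arm 21 genes were called, 1 higher and 20 lower, and with WI 30 min alone 0 (1686 at an unadjusted p below 0.05). List medians against SCS 4 h alone were 0.68 for the antiviral, -0.49 for the mitochondrial fatty acid oxidation, -0.34 for the heat shock and -0.52 for the proteasome list. Leaving out 1 liver left 0 genes called by edgeR without HOPE 1 h liver 1 or liver 3 (2320 and 1909 at an unadjusted p below 0.05), 2 without SCS 4 h liver 2, 4 without SCS 4 h liver 1 and 6 without WI 30 min liver 1. It left 23 without WI 30 min liver 2, 36 without SCS 4 h liver 3, 44 without HMP 1 h liver 2 and 64 without HOPE 1 h liver 2. It left 114 without HMP 1 h liver 1, 137 without HMP 1 h liver 3 and 166 without WI 30 min liver 3. Without HMP 1 h liver 1 and HOPE 1 h liver 3 together 61 genes were called, of which 38 were among the 140. In all of these settings each of the 140 genes kept the sign of its change, which their choice on the same livers favours. DESeq2 on the same counts and groups called 743 genes, 277 higher and 466 lower, all 140 among them. On simulated counts DESeq2 recovered more of the genes changed 2 fold than edgeR, 62.7% against 49.3%. It also called more unchanged genes, 29 against 6 of 13282. Beside these stood 28, 42 and 62 genes recovered by DESeq2 at 1.5, 2 and 4 fold, and 15, 33 and 60 by edgeR. Unchanged genes were therefore a larger share of the DESeq2 calls.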

How the data were processed

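The authors aligned paired-end RNA-seq reads of the 12 livers with Hisat2 to rat genome Rnor_6.0 and deposited gene counts with FPKM columns beside them; no source used here names the counting program or its strand setting. The deposited counts were tested, and the authors' FPKM were used only to give levels per length. Genes were filtered with filterByExpr by group, scaled by TMM and fitted with 1 mean per group in edgeR 4.0.16 (R 4.3.3, limma 3.58.1, quasi-likelihood F test, 8 residual degrees of freedom). Genes were called at a Benjamini-Hochberg adjusted p below 0.05, and the SE is the log2 change over the square root of F. DESeq2 1.42.0 was an alternative, with other scaling, no filter, a minimum fold of 1.2, single groups as arms, a replicate block and each liver left out.

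The members and gene lists were chosen with earlier results of these data known. Genes named were the 15 largest increases and decreases among called genes with a symbol and at least 5 CPM in an arm, up to 6 called genes per list by p (or the 2 of smallest p where none was called), and 11 genes of injury, oxidative stress, mitophagy and apoptosis fixed by name, and others are said to be chosen after their values were seen. Of 1397 list symbols 1293 were found. Promoters are RefSeq's on GRCr8. Tested on simulated counts for this contrast over 13482 genes, edgeR recovered 22.4%, 49.3% and 90.9% of genes changed 1.5, 2 and 4 fold. Totals of 15262961 to 18343167 counts set the precision of low genes. The labels do not say that samples of a group came from separate animals, so p-values measure the spread between these samples. A few genes under the naming rule are not reported here. Columns of the authors' own comparisons (fold changes, p-values) were not used.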

Additional observations from a re-analysis of the deposited data

Results flagged for a closer look

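Among 318 arms of 6 livers checked (159 genes), 20 had a liver whose gap to its nearest neighbour, as a share of the arm's whole range, passed Dixon's 95% critical value. Chance flags about 1 in 20 groups, and no cause was tested.

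HMP 1 h livers gave 6 of these in the perfused arm. HMP 1 h liver 1 was the lowest perfused liver for Hprt1 (0.661) and for Ugdh (0.683). HMP 1 h liver 2 was the lowest for Vnn1 (0.701), Mpc2 (0.692) and Galk1 (0.729) and the highest for Aldh1b1 (0.707). In HOPE 1 h, liver 1 was the lowest for Ndufb7 (0.663) and the highest for Icam1 (0.631), and liver 2 the lowest for Fabp2 (0.702).

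In the unperfused arm WI 30 min liver 3 was the lowest for Cyp4a1 (0.739), Hsd17b13 (0.697) and Mpc2 (0.639), and so nearest to the perfused livers in genes that fell. WI 30 min liver 2 was the lowest for Stip1 (0.803) and Hmgb1 (0.65) and the highest for Msln (0.626), and WI 30 min liver 1 the lowest for Vwf (0.651) and the highest for Idi1 (0.69). SCS 4 h liver 1 was the lowest for Adam11 (0.629), and SCS 4 h liver 2 the lowest for Apoa4 (0.761) and the highest for Pink1 (0.697).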

How the results depend on the processing

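Each of the 140 called genes kept its sign under every alternative run, while the number of calls moved. The genes were chosen on these same livers, which favours a kept sign, so this is no independent check. DESeq2 called 743 genes (277 higher, 466 lower), and without a filter on low counts 197 were called, 65 of them higher and 67% lower against 73.6% before. SCS 4 h alone as the unperfused arm gave 21 (1 higher, 20 lower), WI 30 min alone 0 in total and in each direction (1686 at an unadjusted p below 0.05), HMP 1 h alone as the perfused arm 64 (24 higher, 40 lower) and HOPE 1 h alone 0 (1565 at an unadjusted p below 0.05). Asking for a change of at least 1.2-fold gave 2 (1 higher, 1 lower). Leaving out 1 liver gave 0 to 166 calls, 0 to 50 higher and 0 to 135 lower. Leaving out HMP 1 h liver 1 and HOPE 1 h liver 3 together, an alternative chosen after seeing the data, gave 61 (29 higher, 32 lower). The smaller sets have fewer livers, and otherwise the cause was not tested.

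With a replicate block on the liver numbers 66 genes were called (22 higher, 44 lower), 62 of them among the 140. Correlations of the livers' deviations showed no clear pairing by number, though 12 livers are too few to decide this. Same-numbered livers of different groups had correlations from -0.189 to 0.143, and differently numbered livers from -0.225 to 0.329. Of 18 same-numbered pairs 1 was over 0.1, and 5 of 12 livers correlated best with their own number.

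Some genes that were not called changed sign: Sqstm1 was at 0.043 against WI 30 min alone and 0.015 with HOPE 1 h alone, Got1 at -0.074 against WI 30 min alone and -0.18 with HMP 1 h alone, Hmgb1 at -0.17 with HMP 1 h alone, Npas2 at -0.20 with HOPE 1 h alone, and Bax at -0.10 without the 2 livers above.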
